A study of Mus musculus with 12 samples.

Results

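The cytosolic aminoacyl-tRNA synthetases and the genes of the ATF4 amino acid response were described in KY-2 and KY-1, cell lines of mouse natural killer (NK) cells. A list of 36 genes, chosen with earlier results of these data known, defined the module. A gene was measured where a probe set of the array carried its symbol alone. This held for 34 of the 36 genes, out of 19938 genes measured in the same way. The probe set of Aars is shared with Exosc6 and no probe set was paired with Dars in the annotation used, so neither was followed. Mars stands in that annotation as Mars1. The brightest probe set over the 12 arrays was used for each gene, and Iars alone had more than 1. By role the 34 genes were 18 synthetases, 4 genes of transcription control (Atf4, Cebpb, Ddit3 and Trib3), 7 genes of amino acid synthesis and related metabolism, and 5 amino acid transporters.

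Total RNA of 4 groups was measured on Affymetrix arrays that take 1 sample each. KY-2 cells with the Myb vector were measured on 3 arrays, KY-2 cells with the GFP vector on 2, KY-1 cells with the Myb vector on 4 and KY-1 cells with the GFP vector on 3. Every group carried a p53 knockout, was grown in the same medium with 200 U/mL human IL-15 and was sorted for GFP. The vectors differ by the FLAG-tagged Myb that the Myb vector adds behind GFP and a P2A peptide. Any other difference between GFP and Myb cells, as in culture or handling, cannot be told apart from that of the vector. The series is set in work on NK cell maturation and asks how added Myb, a transcription factor of blood progenitors, changes expression in these lines. Each line is a single cell line, so KY-2 against KY-1 compares these lines and no wider classes of cell.

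An aminoacyl-tRNA synthetase joins an amino acid to its tRNA, which supplies the ribosome. When amino acids run short, uncharged tRNA activates the kinase GCN2, which phosphorylates the initiation factor eIF2. General translation then slows while the mRNA of the transcription factor ATF4 is translated more. ATF4, with partners of the C/EBP family, binds composite sites in genes for synthetases, amino acid synthesis and amino acid import. Activated lymphocytes depend on such import, since they grow and divide on extracellular amino acids such as leucine and glutamine.

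Some of the ATF4 module's promoters show this composite site in their letters. The 8 letters TGATGNAA, where N is any base, were searched on both strands from 250 bases before to 50 bases after each transcription start in RefSeq sequence of GRCm38.p6. They occurred in 8 of the 25 genes with such a window (32.0%) and in 1219 of 27025 genes with a window in the whole table (4.51%). By role they occurred in 4 of 11 synthetases, 1 of 4 genes of transcription control, 2 of 7 synthesis genes and 1 of 3 transporters. Cars, Hars, Lars, Nars, Rars, Slc1a5, Slc7a5, Vars and Wars had no window. A match describes letters and not a bound site. The 9 matching stretches are shown with 8 bases on either side, 5′ to 3′ on the gene's own strand, with the match in capitals (some are the reverse complement), and with the place of its first base counted from the start as 1.
Asns, chr6:7693217-7693240, minus strand, at -23: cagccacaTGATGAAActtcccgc
Slc7a11, chr3:50443664-50443687, minus strand, at -66: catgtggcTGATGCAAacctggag
Slc7a11, chr3:50443645-50443668, minus strand, at -47: tggagaatTTGCATCAtcatgcag
Chac1, chr2:119351041-119351064, plus strand, at -193: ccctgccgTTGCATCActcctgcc
Trib3, chr2:152344031-152344054, minus strand, at 15: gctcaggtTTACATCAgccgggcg
Yars, chr4:129189898-129189921, plus strand, at 4: agctcagcTGATGCAAcccgacgg
Gars, chr6:55037963-55037986, plus strand, at -30: ctgcgctaTTTCATCAtgcaccgg
Iars, chr13:49682129-49682152, plus strand, at 8: tgtcagtaTTGCATCAcctccaga
Tars, chr15:11399658-11399681, minus strand, at -15: gagtcccgTTGCATCAgctggtta

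Asns and Cebpb are the genes with a window whose expression passed the test in a Myb comparison below, and for that reason their 150 bases before the start are shown. In Asns the match lies near the start. In Cebpb these letters are not in the window, which says nothing about binding of ATF4 there.
Asns, chr6:7693210-7693359, minus strand: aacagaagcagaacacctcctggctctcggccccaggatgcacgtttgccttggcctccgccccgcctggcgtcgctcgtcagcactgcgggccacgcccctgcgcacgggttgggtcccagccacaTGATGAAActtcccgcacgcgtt
Cebpb, chr2:167688765-167688914, plus strand: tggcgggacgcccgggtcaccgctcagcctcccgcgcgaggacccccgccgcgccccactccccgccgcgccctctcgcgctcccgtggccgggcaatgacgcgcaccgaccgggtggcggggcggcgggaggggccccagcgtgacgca

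The deposited values are on a log2 scale, so a difference of 1 is a doubling, and array medians lay between 5.31 and 5.42. In KY-1, GFP arrays 1 and 2 and Myb arrays 3 and 4 differed far less (robust SDs of 0.0433 to 0.0469) than the other 11 pairs within groups (0.102 to 0.172). Each of these pairs was averaged and counted as 1 sample, which left 3 Myb and 2 GFP samples in each line. Myb itself read 9.80, 9.67 and 9.75 in KY-2 Myb samples and 5.0 and 5.10 in KY-2 GFP samples. It read 9.59, 9.57 and 9.54 in KY-1 Myb samples and 7.94 and 8.04 in KY-1 GFP samples, so the GFP baselines of the lines lay far apart. Of 11 NK markers 8 read above 8 in KY-2 with either vector, 9 in KY-1 with Myb and 10 in KY-1 with GFP. The NK receptor gene Ncr1 averaged 5.34 and 5.43 in KY-2 with Myb and GFP, at about the array medians. Of 6 T cell markers, Cd3g and Cd8a read above 8 in KY-2 (12.19 and 10.36 with Myb) and none did in KY-1, while no B cell, myeloid or erythroid marker did in any group. Kit, the only one of 5 mast cell markers with a group mean above 8, averaged 7.87 and 8.07 in KY-2 and 10.30 and 10.39 in KY-1 with Myb and GFP. Fcer1a and Ms4a2 lay below the array medians in every group. In KY-1, 2 of the 5 were higher with Myb (limma adjusted p under 0.05), as were 0.612% of all genes. The largest differences there were in Mcpt8, which averaged 7.08 with Myb and 5.32 with GFP, and Cpa3 (5.96 and 4.86).

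All 4 group means lay above every array median for 32 of the 34 genes. Slc7a11 lay below the medians in every group and Chac1 lay near them, so sizes of their differences are the least certain. The spread between samples of a group was small, with a median SD of 0.0586. The 4 group means of a gene spanned a median of 0.43, from 0.08 in Farsa to 0.97 in Slc7a11. In bulk RNA, a lower value can come from fewer cells that express a gene or from less RNA per cell, and these cannot be told apart. Nothing in the labels says that samples were separate cultures, so each p-value reflects only how far these samples vary, and that variation may be technical. The map of all 34 genes by sample shows that most of the pattern runs between the lines, with smaller differences by vector within KY-2.

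**Figure D1:**
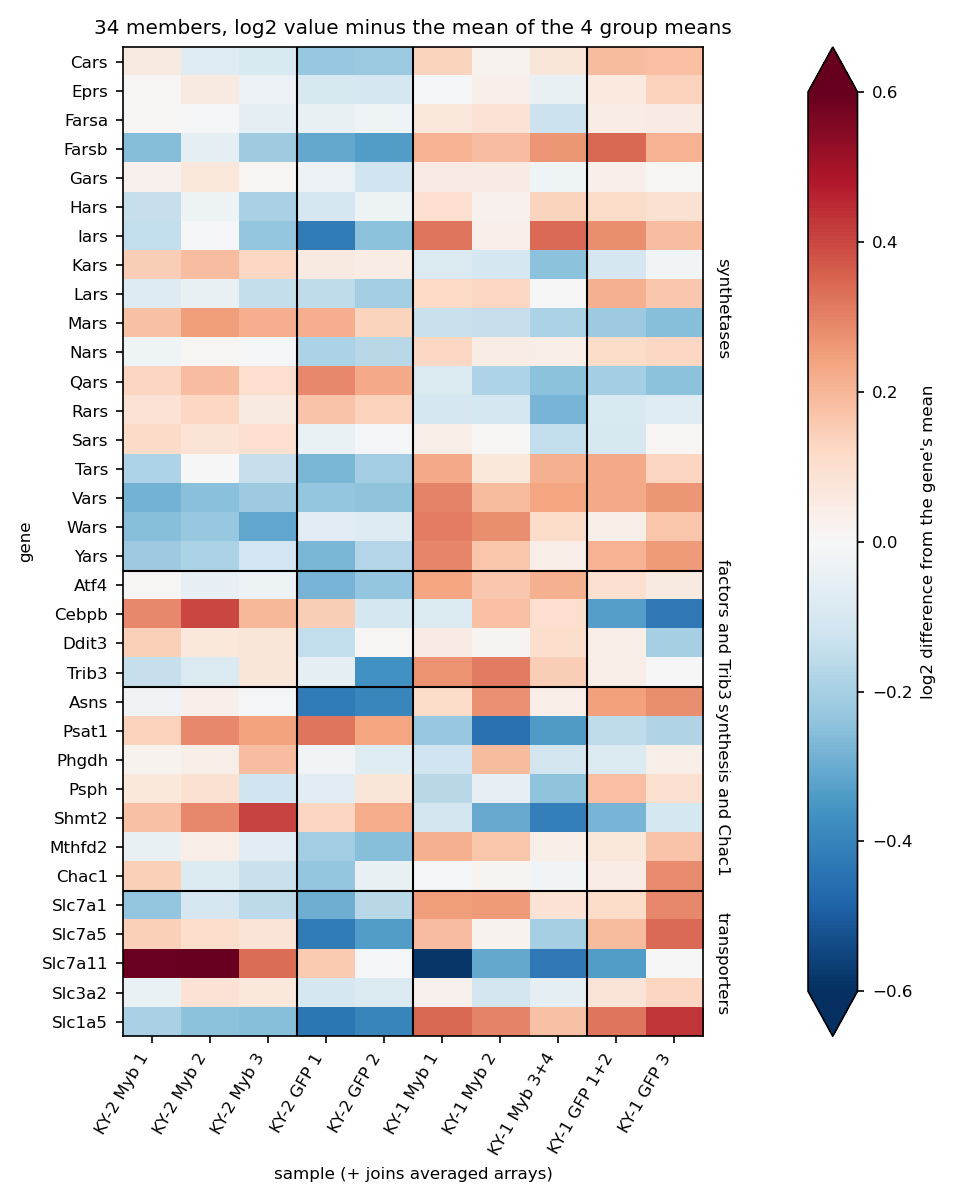
Each cell is the log2 value of a gene (rows, grouped by role) in a sample (columns, in the order KY-2 Myb, KY-2 GFP, KY-1 Myb, KY-1 GFP) minus the mean of that gene's 4 group means; red is higher and blue is lower, and the colour scale ends at 0.6 either way. In KY-2 GFP samples Asns, Slc7a5, Slc1a5, Farsb and Iars are blue, and Mars, Qars, Psat1 and Shmt2 are red in KY-2 and blue in KY-1 with either vector.

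With Myb, KY-2 cells had more mRNA for asparagine synthetase and for a large neutral amino acid transporter. Asns, which makes asparagine from aspartate and glutamine, rose 1.32-fold, and Slc7a5, the light chain of the leucine transporter LAT1, rose 1.40-fold. A call here means a limma adjusted p under 0.05 over all 19938 genes. These were 2 of 34 genes called higher and 0 were called lower, where 1.28% of all genes were called higher and 1.55% lower in KY-2. In a fit of the 8869 genes with a mean over 6, 332 were higher and 426 lower, and 3 and 0 of 32 module genes were. At an unadjusted p under 0.05, 9 were higher and 1 lower, where 1372 and 1258 of all 19938 genes were. Differences were small but mostly positive: 28 of 34 were above 0, with a median of 0.12 against 0.01 over all genes, of which 10573 of 19938 were above 0. As the list was chosen with earlier results of these data known, this shift is a description with no test.

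Asns (chr6:7675165-7693209, GRCm38.p6) read 10.58, 10.63 and 10.59 in KY-2 Myb samples and 10.18 and 10.21 in KY-2 GFP samples. The groups did not overlap, and the difference was 0.41 ± 0.08 log2 (SE, limma adjusted p = 0.0275). Slc7a5 (chr8:121881146-121907686) read 10.63, 10.59 and 10.56 in KY-2 Myb samples and 10.06 and 10.15 in KY-2 GFP samples. Every Myb sample was again above both GFP samples, by 0.49 ± 0.11 on average (SE, limma adjusted p = 0.0391). These calls rest on few samples. Leaving out any of the 5 KY-2 samples ended the call of Asns (adjusted p from 0.0649 without Myb sample 1 to 0.233 without GFP sample 1) and that of Slc7a5 (from 0.0887 without Myb sample 3 to 0.319 without GFP sample 1), while the differences kept between 0.39 and 0.53. The call of Slc7a5 also ended without either KY-1 GFP sample (adjusted p = 0.0527 each), without KY-1 Myb sample 2 (0.0529), with the replicate number as a block (0.0699) and with median centring (0.0593), and that of Asns in a fit of the KY-2 groups alone (0.0531).

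The other transporters shared the direction in KY-2 without passing the test. Slc3a2, the CD98 heavy chain that pairs with Slc7a5 and Slc7a11, read 9.95, 10.07 and 10.05 in Myb samples and 9.88 and 9.90 in GFP samples (difference 0.13, limma adjusted p = 0.556). Slc1a5, the glutamine transporter ASCT2, read 9.84, 9.79 and 9.78 in Myb samples and 9.60 and 9.64 in GFP samples (difference 0.18, limma adjusted p = 0.372). In both genes all Myb samples lay above the GFP samples. Slc7a11, the cystine and glutamate exchanger, read 4.29, 4.35 and 4.03 in Myb samples and 3.85 and 3.69 in GFP samples, a difference of 0.45 ± 0.13 (SE, limma adjusted p = 0.125) at levels below the array medians. Slc7a1, the cationic amino acid transporter, read 8.39, 8.53 and 8.47 in Myb samples and 8.33 and 8.46 in GFP samples, and these overlapped.

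The genes of transcription control all had positive differences in KY-2, and none passed the test. Atf4 read 10.35, 10.30 and 10.32 in KY-2 Myb samples and 10.07 and 10.11 in KY-2 GFP samples, a difference of 0.23 ± 0.07 (SE, limma adjusted p = 0.157) with no overlap. It was called with dim genes left out (adjusted p = 0.0333) and under a trended prior variance (0.0101). ATF4 is controlled largely at translation, which these arrays do not measure. Cebpb, a leucine zipper factor that can pair with ATF4, read 7.14, 7.25 and 7.05 in Myb samples and 7.0 and 6.74 in GFP samples (0.28 ± 0.11, adjusted p = 0.301). Ddit3, the stress factor CHOP, read 7.92, 7.84 and 7.85 in Myb samples and 7.63 and 7.79 in GFP samples (adjusted p = 0.528). Trib3, a pseudokinase that restrains ATF4, read 6.49, 6.54 and 6.70 in Myb samples and 6.57 and 6.27 in GFP samples, and these overlapped.

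Among the remaining synthesis genes, Mthfd2, of the mitochondrial folate pathway, read 9.47, 9.56 and 9.45 in KY-2 Myb samples and 9.30 and 9.26 in KY-2 GFP samples (difference 0.21 ± 0.08 SE, limma adjusted p = 0.300). Myb samples lay above GFP samples for Mthfd2 and for Phgdh, the first enzyme of serine synthesis (0.12, adjusted p = 0.725). The groups overlapped for the serine synthesis genes Psat1 and Psph, for Shmt2, which moves a carbon unit from serine to folate in mitochondria, and for Chac1, which breaks down glutathione. Their differences ran from -0.05 (Psat1) to 0.11 (Shmt2 and Chac1).

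None of the 18 synthetases was called in KY-2, and 13 of their 18 differences were above 0 (median 0.10). The largest were in Iars (0.20 ± 0.11), for isoleucine, Cars (0.19 ± 0.08), for cysteine, and Nars (0.17 ± 0.07), for asparagine, with limma adjusted p of 0.513, 0.330 and 0.341. The dimmer probe set of Iars showed a smaller gap, with 9.37, 9.43 and 9.48 in KY-2 Myb samples and 9.30 and 9.32 in KY-2 GFP samples. Cars read 8.48, 8.36 and 8.34 in KY-2 Myb samples and 8.20 and 8.21 in KY-2 GFP samples, and Nars read 10.74, 10.78 and 10.75 against 10.58 and 10.60. Wars, the interferon-inducible synthetase for tryptophan, ran the other way, with 9.51, 9.54 and 9.46 in KY-2 Myb samples and 9.71 and 9.69 in KY-2 GFP samples (difference -0.19 ± 0.09 SE, adjusted p = 0.366). The glutamine and arginine synthetases Qars and Rars also had every Myb sample below both GFP samples, by 0.12 and 0.07 on average.

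Counted by separation alone, 20 of the 34 genes (58.8%) had all KY-2 Myb samples above both KY-2 GFP samples, where 16.4% of all genes did. Myb samples lay wholly below in 3 genes (8.82%), against 14.6% of all genes. The 20 were 10 synthetases, 3 genes of transcription control, 3 synthesis genes and 4 transporters. Genes that are regulated together do not vary independently, so this count is a description with no test. The list was also chosen with earlier results of these data known. Most of its genes were bright, and shares over genes of like brightness were not counted.

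**Figure D2:**
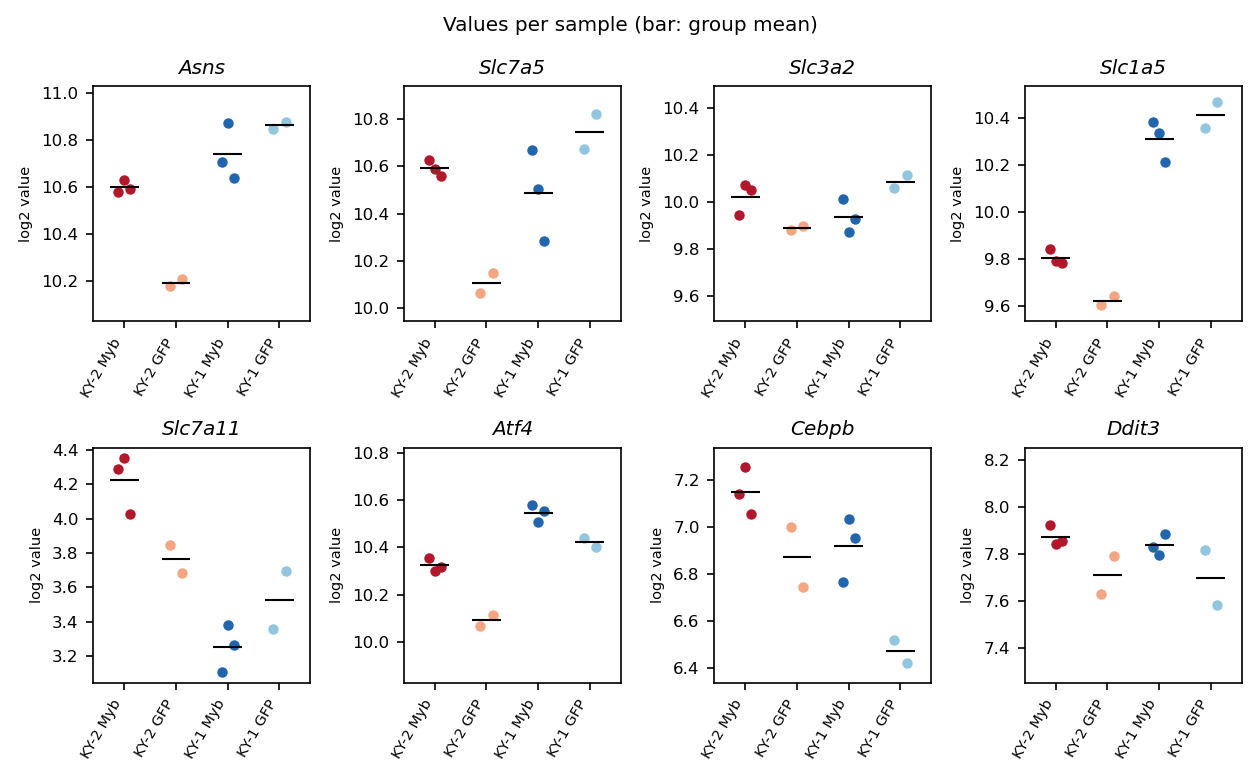
Points are log2 values of single samples and bars are group means for 5 genes of amino acid supply and 3 transcription factors, with groups in the order KY-2 Myb, KY-2 GFP, KY-1 Myb, KY-1 GFP; each panel has its own axis. Every gene shown separates by vector in KY-2, where Asns and Slc7a5 passed the test (differences of 0.41 and 0.49). Cebpb is higher with Myb in each line but passed the test in neither.

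In KY-1 cells, no gene of the module passed the test with Myb. The counts were 0 higher and 0 lower, where 0.612% of all genes were called higher and 0.612% lower, and at an unadjusted p under 0.05 they were 1 higher and 2 lower, where 1089 and 1103 of all 19938 genes were. The median difference was -0.04 against -0.00 over all genes, and 23 of 34 were below 0. Myb samples lay wholly above GFP samples in 4 genes (13% of all genes did) and wholly below in 9 (13.8% of all genes did).

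Asns read 10.71, 10.87 and 10.64 in KY-1 Myb samples and 10.85 and 10.88 in KY-1 GFP samples (difference -0.12 ± 0.08 SE, limma adjusted p = 0.668), and these overlapped. Slc7a5 read 10.67, 10.51 and 10.28 in KY-1 Myb samples and 10.67 and 10.82 in KY-1 GFP samples (-0.26 ± 0.11 SE, adjusted p = 0.397). Its highest Myb sample and its lower GFP sample had the same value to 2 decimals. The 95% intervals of these differences were -0.31 to 0.06 for Asns and -0.50 to -0.02 for Slc7a5, without adjustment for the number of genes. Psph, the last enzyme of serine synthesis, had the most negative difference, with 8.88, 8.99 and 8.80 in KY-1 Myb samples and 9.22 and 9.14 in KY-1 GFP samples (-0.29 ± 0.10 SE, adjusted p = 0.265). All 5 transporters had differences below 0, from -0.27 in Slc7a11 to -0.00 in Slc7a1.

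The genes of transcription control had all 4 differences above 0 in KY-1 as in KY-2. In KY-1 this also held for 5 synthetases and 2 synthesis genes, and for 9882 of all 19938 genes. Cebpb had the largest, with 6.77, 7.03 and 6.95 in KY-1 Myb samples and 6.52 and 6.42 in KY-1 GFP samples (0.45 ± 0.11 SE, limma adjusted p = 0.102). Atf4 read 10.58, 10.51 and 10.56 in Myb samples and 10.44 and 10.40 in GFP samples (0.13, adjusted p = 0.583). Trib3 read 6.89, 6.94 and 6.78 in Myb samples and 6.66 and 6.62 in GFP samples (0.23, adjusted p = 0.486). In these 3 genes every KY-1 Myb sample was above both GFP samples, a pattern that 13% of all genes showed.

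Averaged over the lines, Cebpb (chr2:167688915-167690432) was the gene that rose with Myb, by 0.36 ± 0.08 log2 (SE, 1.28-fold, limma adjusted p = 0.0310). This was 1 of 34 called higher and 0 lower, where 1.52% of all genes were called higher and 1.58% lower. The call ended on leaving out KY-1 GFP arrays 1 and 2 (adjusted p = 0.0758), KY-1 GFP sample 3 (0.128), KY-1 Myb sample 2 (0.0612), KY-1 Myb arrays 3 and 4 (0.0719), KY-2 GFP sample 2 (0.134), KY-2 Myb sample 1 (0.0589) or KY-2 Myb sample 2 (0.0712). Atf4 averaged 0.18 ± 0.05 (SE, limma adjusted p = 0.103), and its call depended on the fit: it was called under a trended prior variance (adjusted p = 0.00494), with dim genes left out (0.0186) and with all 12 arrays as separate samples (0.0244).

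Whether Myb acted differently in the lines was tested as the Myb effect in KY-2 minus that in KY-1. No gene of the module passed, with 0 higher and 0 lower, where 0.461% of all genes were called higher and 0.381% lower. At an unadjusted p under 0.05, 6 were higher and 1 lower, where 1083 and 973 of all 19938 genes were. Of the module 27 of 34 differences were above 0, as were 10459 of all genes (medians 0.13 and 0.01). The largest were in Slc7a5 (0.75 ± 0.15 SE, limma adjusted p = 0.0562), Slc7a11 (0.73 ± 0.19, adjusted p = 0.134) and Asns (0.53 ± 0.12, adjusted p = 0.0822). Slc7a5 and Asns passed with all 12 arrays as separate samples (adjusted p = 0.0152 and 0.0142), with dim genes left out (0.0144 and 0.0180) and under a trended prior (0.00119 and 0.00184). Slc7a5 also passed without KY-1 Myb sample 1 (0.0282) and Asns without KY-1 Myb sample 2 (0.0439). Wars had the most negative value, -0.33 ± 0.12 (SE, adjusted p = 0.364).

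**Figure D3:**
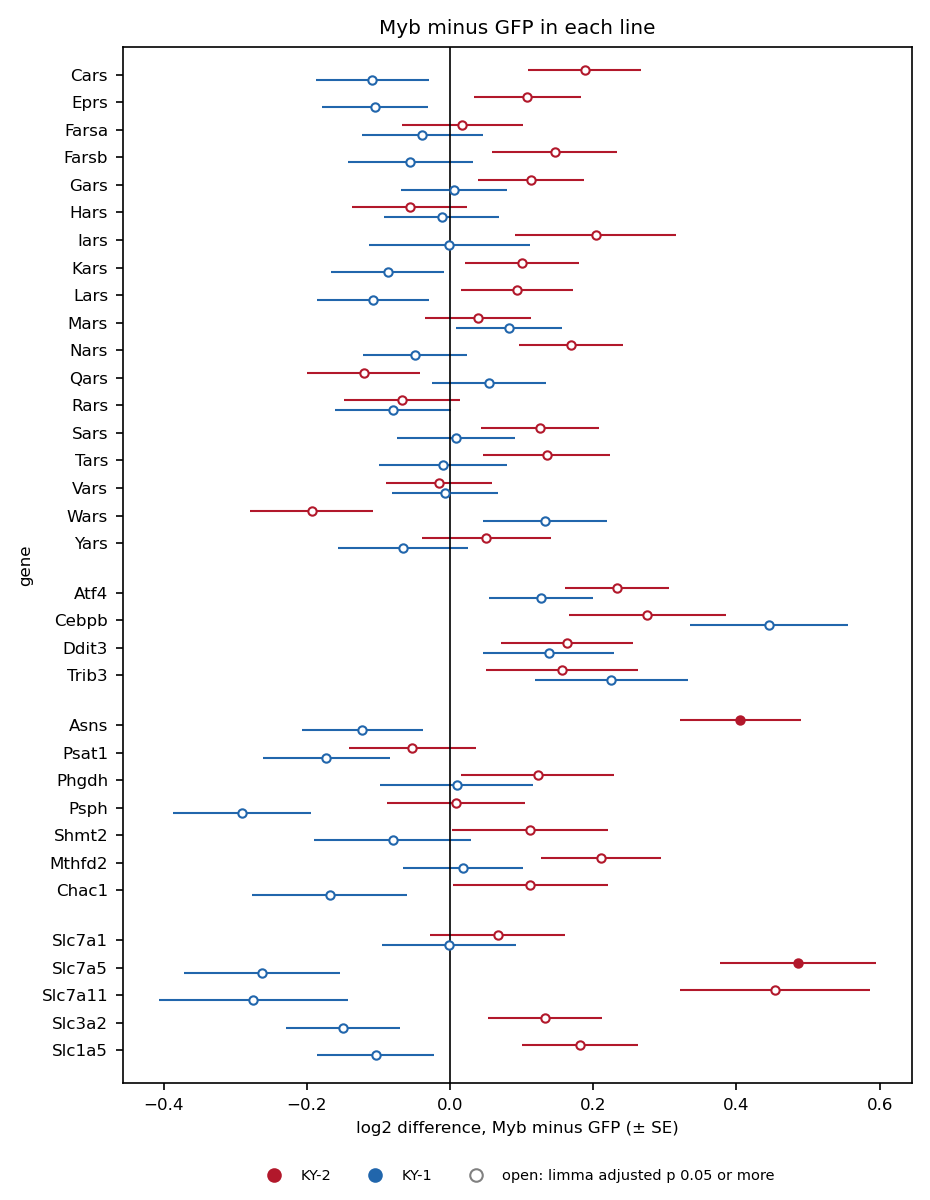
Points are log2 differences, Myb minus GFP, in KY-2 (red) and KY-1 (blue) for the 34 genes grouped by role, with bars of 1 SE; filled points have a limma adjusted p under 0.05. The filled points are Asns and Slc7a5 in KY-2, and most red points lie right of 0, with a median of 0.12 against -0.04 for the blue points.

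Between the lines the differences were larger and more numerous. With the GFP vector, KY-2 cells had less mRNA than KY-1 cells for 8 synthetases, Atf4, Asns, Mthfd2 and 3 transporters, and more for Mars, Qars, Cebpb, Psat1 and Shmt2. These were 14 of 34 called lower and 5 called higher, where 15.2% of all genes were called lower and 13.6% higher. Most of the module was bright, and line calls were more common among bright genes. In a fit of the 8869 genes with a mean over 6, 2869 were lower and 2309 higher. In that fit 16 of 32 module genes were lower and 6 higher. The median difference was -0.20 against -0.04 over all genes, and 24 of 34 were below 0. Centring the arrays on a common median moved the calls over all genes to 3081 higher and 2218 lower, against 2718 higher and 3039 lower as deposited, and those of the module to 6 and 11. T cell markers summed on the linear scale came to 7112 to 7686 in KY-2 GFP samples against 260 to 266 in KY-1 GFP samples. The brightest in KY-2 GFP samples were Cd3g (12.30) and Cd8a (11.00), while Cd3e was lower there than in KY-1 GFP samples (5.32 against 6.22). Of the 6 markers 3 were called higher and 1 lower. Their part in the differences was not tested.

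Among the transporters, Slc1a5 (chr7:16781334-16798274) had the largest difference, with 9.60 and 9.64 in KY-2 GFP samples against 10.36 and 10.47 in KY-1 GFP samples (-0.79 ± 0.09 SE, 1.73-fold lower, limma adjusted p = 4.96e-05). Slc7a5 read 10.06 and 10.15 in KY-2 GFP samples against 10.67 and 10.82 in KY-1 GFP samples (-0.64 ± 0.12, adjusted p = 0.00174). Slc7a1 read 8.33 and 8.46 against 8.74 and 8.92 in the same order (-0.43 ± 0.10, adjusted p = 0.00840). All 3 separated fully between the lines, and Slc3a2 did too with a smaller difference (-0.20, adjusted p = 0.121). Such separation was common with GFP, where 35.7% of all genes lay wholly below in KY-2 and 27.2% wholly above.

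Asns read 10.18 and 10.21 in KY-2 GFP samples against 10.85 and 10.88 in KY-1 GFP samples, 1.59-fold lower (-0.67 ± 0.09 SE, limma adjusted p = 0.000230). Mthfd2 read 9.30 and 9.26 against 9.58 and 9.68 (-0.35, adjusted p = 0.0133). Atf4 read 10.07 and 10.11 against 10.44 and 10.40 (-0.33 ± 0.08, adjusted p = 0.00857). Psat1 and Shmt2 were higher in KY-2, while Phgdh and Psph, also of serine synthesis, were not called (-0.02 and -0.13). Psat1, which forms phosphoserine, read 10.49 and 10.40 in KY-2 GFP samples against 10.02 and 9.99 in KY-1 GFP samples (0.44 ± 0.10, adjusted p = 0.00517), and Shmt2 read 10.27 and 10.36 against 9.86 and 10.03 (0.37 ± 0.12, adjusted p = 0.0388). Cebpb was also higher, with 7.0 and 6.74 against 6.52 and 6.42 (0.40 ± 0.12, adjusted p = 0.0270).

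Some synthetases belong to the multisynthetase complex, a cytosolic particle of several synthetases and scaffold proteins. Of the 11 outside it, 6 were lower in KY-2 and 0 higher with GFP, where 15.2% of all genes were lower and 13.6% higher, and their median difference was -0.30. They were Farsb, Vars, Yars, Tars, Cars and Nars. Farsb, the beta subunit of the phenylalanine enzyme, read 9.63 and 9.60 in KY-2 GFP samples against 10.28 and 10.14 in KY-1 GFP samples (-0.60 ± 0.10 SE, limma adjusted p = 0.000635), while Farsa, its alpha subunit, differed by -0.08 (adjusted p = 0.579). Vars, for valine, read 8.90 in each KY-2 GFP sample against 9.37 and 9.40 (-0.49). Yars, for tyrosine, read 8.16 and 8.26 against 8.65 and 8.69 (-0.46). These groups lay well apart. Tars, for threonine, read 9.07 and 9.14 against 9.58 and 9.48 (-0.42), Cars 8.20 and 8.21 against 8.62 and 8.61 (-0.41) and Nars 10.58 and 10.60 against 10.88 and 10.89 (-0.30).

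Of the 7 complex members measured, 2 were higher and 2 lower in KY-2 with GFP, against the same shares of all genes. Mars, for methionine, read 9.11 and 9.03 in KY-2 GFP samples against 8.68 and 8.64 in KY-1 GFP samples (0.41 ± 0.08 SE, limma adjusted p = 0.00256). Qars read 8.35 and 8.29 against 7.85 and 7.81 (0.48 ± 0.09, adjusted p = 0.00138). Iars read 10.03 and 10.20 against 10.73 and 10.64 (-0.57 ± 0.12, adjusted p = 0.00493), and Lars, for leucine, 10.02 and 9.96 against 10.38 and 10.33 (-0.37 ± 0.09, adjusted p = 0.00672). Whether complex members differed from other synthetases as a class was not tested. Ddit3 and Mars overlap in the annotation on chromosome 10, and the part of this overlap in the value of Mars was not tested.

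Some calls with GFP ended when a sample was left out. Without KY-2 GFP sample 1 the counts were 3 higher and 9 lower, and Atf4 (adjusted p = 0.0626), Cebpb (0.214), Iars (0.0511), Nars (0.0819), Shmt2 (0.0854), Slc7a1 (0.0746) and Tars (0.0548) missed the threshold. Without KY-2 GFP sample 2, Lars (0.0521), Mthfd2 (0.0787), Nars (0.0616) and Shmt2 (0.177) missed it. Without KY-1 GFP arrays 1 and 2, the same held for Atf4 (0.0551), Cebpb (0.0607), Nars (0.0607), Shmt2 (0.221) and Tars (0.0565), which left 3 higher and 11 lower. Without KY-1 GFP sample 3 it held for Cebpb (0.134), Mthfd2 (0.0912), Nars (0.0693) and Slc7a1 (0.0764), and without KY-2 Myb sample 2 for Shmt2 (0.0531). Median centring also ended the calls of Atf4 (0.0531), Mthfd2 (0.0655) and Nars (0.101). The other 10 calls held in each of the 18 alternatives, among them Slc1a5, Asns, Slc7a5, Farsb, Vars, Mars, Qars and Psat1.

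With the Myb vector, KY-2 cells again had less mRNA than KY-1 cells for several synthetases and for Slc1a5, while Asns and Slc7a5 no longer differed past the test. The counts were 7 higher and 11 lower, where 14.7% of all genes were called higher and 16.9% lower, and the median was -0.02 against -0.01 over all genes. In the fit of the 8869 genes with a mean over 6, 2379 were higher and 3214 lower. There 7 of 32 module genes were higher and 13 lower. Asns read 10.58, 10.63 and 10.59 in KY-2 Myb samples against 10.71, 10.87 and 10.64 in KY-1 Myb samples (-0.14 ± 0.08 SE, limma adjusted p = 0.201). Slc7a5 overlapped between the lines (0.11 ± 0.10, adjusted p = 0.477). Slc1a5 stayed apart, with 9.84, 9.79 and 9.78 against 10.38, 10.33 and 10.21 (-0.50 ± 0.07, adjusted p = 0.000261). T cell markers summed to 5989 to 6350 in KY-2 Myb samples against 356 to 390 in KY-1 Myb samples. Of the 6 markers 3 were called higher and 0 lower, and Cd3e averaged 5.70 against 5.80. The part of these markers was not tested here either.

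Slc7a11 had the largest difference of the module, with 4.29, 4.35 and 4.03 in KY-2 Myb samples against 3.11, 3.38 and 3.26 in KY-1 Myb samples (0.97 ± 0.12 SE, 1.96-fold higher, limma adjusted p = 7.45e-05). All of these values lay below the array medians, so the size is uncertain. Psat1 read 10.31, 10.46 and 10.41 against 9.94, 9.72 and 9.83 (0.56 ± 0.08, adjusted p = 0.000220). Shmt2 read 10.31, 10.43 and 10.55 against 10.03, 9.84 and 9.73 (0.56 ± 0.10, adjusted p = 0.000963). Both were thus higher in KY-2 than in KY-1 with either vector. Slc7a1 read 8.39, 8.53 and 8.47 against 8.88, 8.88 and 8.71 (-0.36), Atf4 10.35, 10.30 and 10.32 against 10.58, 10.51 and 10.56 (-0.22, adjusted p = 0.0203), and Trib3 6.49, 6.54 and 6.70 against 6.89, 6.94 and 6.78 (-0.29, adjusted p = 0.0362).

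Among the 11 synthetases outside the complex, 6 were lower and 0 higher in KY-2 with Myb, where 16.9% of all genes were lower and 14.7% higher. Wars read 9.51, 9.54 and 9.46 in KY-2 Myb samples against 10.08, 10.05 and 9.88 in KY-1 Myb samples (-0.50 ± 0.08 SE, limma adjusted p = 0.000430), and Vars 8.85, 8.88 and 8.92 against 9.44, 9.33 and 9.38 (-0.49 ± 0.07, adjusted p = 0.000146). Farsb read 9.67, 9.88 and 9.72 against 10.14, 10.12 and 10.20 (-0.40). These 3 genes separated the lines fully. Of the 18 synthetases 9 lay wholly below in KY-2 with Myb, where 22.8% of all genes did. Yars read 8.22, 8.25 and 8.33 against 8.73, 8.61 and 8.48 (-0.34), Tars 9.16, 9.35 and 9.21 against 9.58, 9.41 and 9.56 (-0.28) and Hars, for histidine, 9.62, 9.73 and 9.56 against 9.86, 9.79 and 9.89 (-0.21, adjusted p = 0.0463).

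In the complex, 4 of 7 were higher and 1 lower with Myb, against the same shares of all genes. Kars, for lysine, read 11.00, 11.04 and 10.98 in KY-2 Myb samples against 10.77, 10.75 and 10.61 in KY-1 Myb samples (0.30 ± 0.07 SE, limma adjusted p = 0.00755). Mars read 9.07, 9.14 and 9.11 against 8.76, 8.76 and 8.71 (0.37), and Qars 8.19, 8.24 and 8.16 against 7.97, 7.88 and 7.81 (0.31). Each separated the lines fully, as did Rars, with 10.99, 11.02 and 10.96 against 10.80, 10.79 and 10.62 (0.25, adjusted p = 0.0206). Over all genes 19.5% lay wholly above in KY-2 with Myb. Iars was the lower one, with 10.30, 10.44 and 10.22 against 10.77, 10.48 and 10.79 (-0.36 ± 0.10, adjusted p = 0.0173).

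The calls with Myb were lost in part when a sample was left out, and the lower count reached 6 without KY-1 Myb sample 1 and 7 without KY-1 Myb arrays 3 and 4 or KY-2 Myb sample 3. Hars, called at 0.0463, missed the threshold in 11 of 18 alternatives (adjusted p up to 0.157 without KY-2 Myb sample 3). Without KY-1 Myb sample 1, Atf4 (0.0640), Iars (0.0679), Tars (0.0718) and Trib3 (0.0946) missed it, and without KY-1 Myb arrays 3 and 4, Atf4 (0.0502), Iars (0.0692), Rars (0.0755) and Tars (0.0649). Without KY-2 Myb sample 3, Atf4 (0.0584), Iars (0.0677) and Tars (0.0643) missed it. Trib3 also missed it without KY-1 Myb sample 2 (0.102), KY-2 Myb sample 1 (0.117) or KY-2 Myb sample 2 (0.0982), Tars without KY-2 Myb sample 1 (0.0741), and Atf4 (0.0624) and Rars (0.0664) without KY-2 Myb sample 2. The replicate block ended the call of Trib3 (0.0702), and a second quantile normalization that of Rars (0.0541). The other 12 calls held in every alternative run.

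The line comparisons with GFP and with Myb share no arrays, although they share the residual variance of the fit. Mars, Psat1, Qars and Shmt2 were called higher in both, which is 57.1% of the calls with Myb and 80% of the calls with GFP. Atf4, Farsb, Iars, Slc1a5, Slc7a1, Tars, Vars and Yars were called lower in both, 72.7% of the calls with Myb and 57.1% of those with GFP. No gene of the module was called in opposite directions. Over all genes these shares were 75.4% and 81.5% for higher calls and 68.7% and 76.2% for lower calls. The module's share was thus above that of all genes for lower calls with Myb and below it otherwise.

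**Figure D4:**
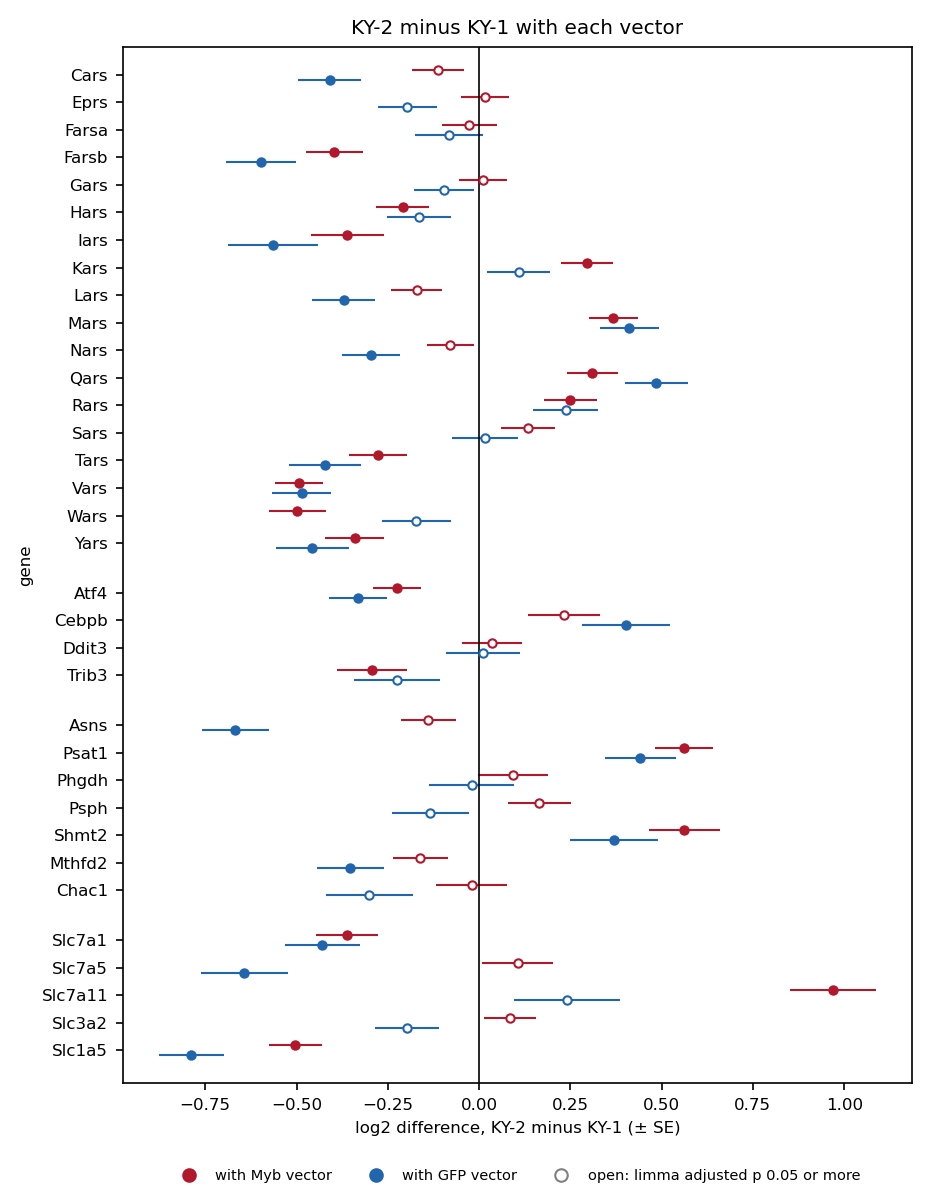
Points are log2 differences, KY-2 minus KY-1, with the Myb vector (red) and the GFP vector (blue) for the 34 genes grouped by role, with bars of 1 SE; filled points have a limma adjusted p under 0.05. Asns and Slc7a5 are filled and far left of 0 with GFP (-0.67 and -0.64) and open near 0 with Myb (-0.14 and 0.11), while Vars lies at -0.49 with either vector.

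Genes that passed in no comparison of the averaged fit were Eprs, Farsa, Gars, Sars, Ddit3, Phgdh, Psph, Chac1 and Slc3a2. Their group means spanned from 0.08 (Farsa) to 0.30 (Chac1). Some passed under an alternative. With GFP, Eprs and Slc3a2 were called lower in KY-2 under a trended prior (limma adjusted p = 0.0113 and 0.0271). Chac1 was called lower there with a second quantile normalization (0.0365). Psph was called lower with Myb in KY-1 with all 12 arrays as separate samples (0.0280). Gars, for glycine, averaged 10.87 ± 0.03 in KY-2 Myb samples and 10.76 ± 0.06 in KY-2 GFP samples (SD, n = 3 and 2), and 10.86 in KY-1 with either vector. Sars, for serine, and Eprs, the fused enzyme for glutamate and proline, spanned 0.14 and 0.20. Absence of a call does not show that a gene was the same in all groups.

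Other genes of the same pathways were followed in 6 lists, chosen with earlier results of these data in view. In the Myb comparisons 0 of 16 mitochondrial synthetases, 0 of 4 scaffold and tRNA export genes, 0 of 15 eIF2 kinase and eIF2 factor genes and 0 of 15 other amino acid transporters were called in either line or on average. At an unadjusted p under 0.05 in KY-2, the counts were 1, 0, 0 and 6, where 2630 of all 19938 genes passed. The 1 mitochondrial synthetase was higher with Myb, and of the 6 transporters 2 were higher and 4 lower. Over all genes 1372 were higher and 1258 lower. Among 22 other genes reported to respond to ATF4, 4 were higher and 1 lower with Myb in KY-2 (1.28% and 1.55% of all genes were), and 0 passed in KY-1. The fourth of those higher, Gpt2, an alanine transaminase named after its values were seen, differed by 0.39 ± 0.09 (SE, limma adjusted p = 0.0452). Its call was lost in 14 of 17 alternatives, with adjusted p up to 0.334 without KY-2 GFP sample 2 and from 0.0587 to 0.122 without any other sample but KY-2 GFP sample 1. Among 15 genes of amino acid sensing by mTORC1, 0 were higher and 2 lower in KY-2, and 1 was higher in KY-1.

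Nupr1, a small stress-induced chromatin protein, read 8.24, 8.25 and 8.10 in KY-2 Myb samples and 7.40 and 7.56 in KY-2 GFP samples (0.72 ± 0.09 SE, limma adjusted p = 0.000789). It read 9.28, 9.38 and 9.30 in KY-1 Myb samples and 9.53 in each KY-1 GFP sample. Slc6a9, a glycine transporter, read 6.80, 6.75 and 6.80 in KY-2 Myb samples and 6.23 and 6.03 in KY-2 GFP samples (0.65 ± 0.09, adjusted p = 0.00178). These calls held in each of 18 alternatives. Bcat1, the cytosolic transaminase of branched-chain amino acids, was higher in KY-2 (0.41 ± 0.08, adjusted p = 0.0202) and on average (0.39 ± 0.06, adjusted p = 0.00304), with 9.09, 9.03 and 8.96 in KY-1 Myb samples and 8.60 and 8.71 in KY-1 GFP samples. Jdp2, a repressor of the AP-1 family, was lower in KY-2 with Myb (-0.41 ± 0.09, adjusted p = 0.0322). Of the sensing genes, Sesn1 was lower in KY-2 (-0.37 ± 0.08, adjusted p = 0.0251), and Castor2 was lower in KY-2 (-0.50 ± 0.11, adjusted p = 0.0383) and higher in KY-1 (0.62 ± 0.11, adjusted p = 0.0230). The calls of Bcat1, Jdp2, Sesn1 and Castor2 in KY-2 ended without either KY-2 GFP sample, with adjusted p from 0.0917 (Sesn1 without sample 2) to 0.285 (Castor2 without sample 1). These 4 ended without KY-2 Myb sample 2 as well (from 0.0609 in Sesn1 to 0.119 in Castor2), all but Bcat1 without Myb sample 1 (from 0.0637 to 0.0769) and all but Jdp2 without Myb sample 3 (from 0.0653 to 0.0874). Leaving out KY-1 samples ended the calls of Jdp2 (GFP arrays 1 and 2, GFP sample 3, Myb sample 1, and Myb arrays 3 and 4, up to 0.0516) and Castor2 (GFP arrays 1 and 2, GFP sample 3 and Myb sample 2, up to 0.0606) in KY-2, and that of Castor2 in KY-1 (GFP arrays 1 and 2, GFP sample 3, and Myb samples 1 and 2, up to 0.159). Averaging the probe sets of Castor2 gave -0.29 in KY-2 (adjusted p = 0.120). A fit of the compared groups alone ended the calls of all 4 in KY-2 (from 0.0592 in Castor2 to 0.119 in Jdp2) and that of Castor2 in KY-1 (0.0769). Median centring ended that of Bcat1 in KY-2 (0.0535).

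Between the lines the eIF2 genes called were all lower in KY-2. With GFP, 0 eIF2 genes were higher in KY-2 and 4 lower, Eif2ak2 (-0.81), Eif2ak3 (-0.67), Impact (-0.84) and Ppp1r15b (-0.54), which encode the kinases PKR and PERK, an inhibitor of GCN2 and a phosphatase subunit. With Myb the counts of these 15 genes were 0 and 8. Over all genes, 13.6% were called higher and 15.2% lower with GFP, and 14.7% and 16.9% with Myb. Of the other ATF4 genes 5 were higher and 9 lower with GFP, among them Got1 (2.11), a glutamate and aspartate transaminase, Nupr1 (-2.05), Jdp2 (-1.47) and Stc2 (1.93). Of 16 mitochondrial synthetases 2 were higher and 3 lower with GFP, near the shares over all genes, with Rars2 at 0.63 and Yars2 at 0.91. Of 15 sensing genes 6 were higher and 3 lower with GFP, with Rragb, a Rag GTPase, at 2.14.

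**Figure D5:**
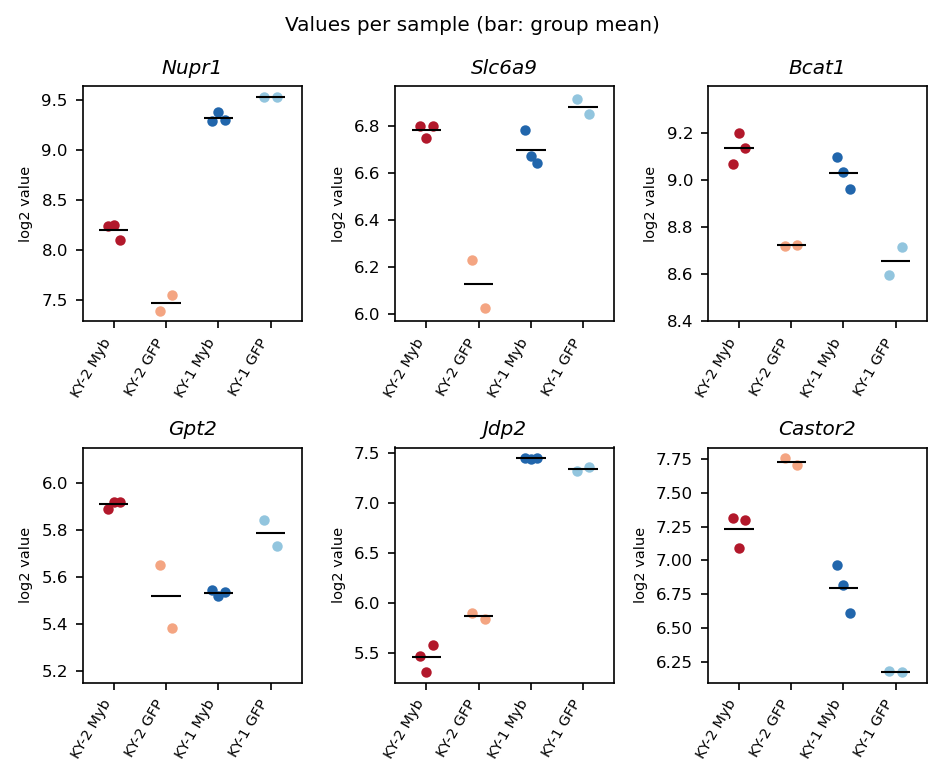
Points are log2 values of single samples and bars are group means for 6 further genes. Castor2 is a gene of amino acid sensing and the others are genes reported to respond to ATF4. Groups are in the order KY-2 Myb, KY-2 GFP, KY-1 Myb, KY-1 GFP, and each panel has its own axis. In KY-2, Nupr1 and Slc6a9 are higher with Myb (0.72 and 0.65), and Castor2 is lower with Myb in KY-2 (-0.50) and higher in KY-1 (0.62).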

How the data were processed

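The deposited values of the 12 arrays are log2 intensities per probe set. Partek and RMA are named per the submitters' processing notes, with versions and options not given in the sources used here. Probe sets were named through the platform annotation in GEO, and those with 1 symbol were kept, with the brightest probe set for each gene. Of 35556 probe sets, 21789 carried 1 symbol and 1621 several, while 12146 were not listed in that annotation. Arrays have no read depth, and precision is set by how many there are.

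Groups came from the sample titles. GFP arrays 1 and 2 and Myb arrays 3 and 4 of KY-1 were averaged, which left 10 samples and 6 residual degrees of freedom. Each pair's robust SD was below 0.5 times the median over all pairs within groups, these pairs included. All 6 comparisons came from 1 linear model without a block (limma 3.58.1 in R 4.3.3, lmFit, contrasts.fit and eBayes), with p-values adjusted by Benjamini-Hochberg over 19938 genes and a threshold of 0.05. The fit was tested on simulated data.

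The members and all gene lists were chosen with earlier results of these data known. All members could be named, with values by sample for each one called in at least 1 comparison, and at most 4 called genes of each other list by smallest p. Alternatives were all 12 arrays as separate samples, a replicate block, median centring, a second quantile normalization, genes with a mean over 6, averaging the probe sets per gene, a trended prior, a fit of the compared groups alone, and each sample left out in turn. Same-numbered samples of a line did not deviate together (correlations from -0.16 to -0.03 over 5 pairs), so the numbers were not taken to pair them.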

Additional observations from a re-analysis of the deposited data

Results flagged for a closer look

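The Myb effect differed between the lines past the test (limma, Myb effect in KY-2 minus Myb effect in KY-1, adjusted over all genes) in 5 of the genes described. Myb itself differed by 3.11 ± 0.11 log2 (SE, adjusted p = 3.84e-07), since it was 4.69 ± 0.08 higher with the Myb vector in KY-2 and 1.58 ± 0.08 higher in KY-1. Nupr1 differed by 0.93 ± 0.12 (adjusted p = 0.00348) and Slc6a9 by 0.84 ± 0.12 (adjusted p = 0.00817), each higher with Myb in KY-2 and with a negative difference in KY-1. Castor2 differed by -1.12 ± 0.16 (adjusted p = 0.00554), lower with Myb in KY-2 and higher in KY-1. The calls of Nupr1, Slc6a9 and Castor2 held in each of 17 alternatives. Gpt2, an alanine transaminase, differed by 0.64 ± 0.13 (adjusted p = 0.0467), with 5.89, 5.92 and 5.92 in KY-2 Myb samples, 5.65 and 5.38 in KY-2 GFP samples, 5.54, 5.52 and 5.54 in KY-1 Myb samples and 5.84 and 5.73 in KY-1 GFP samples. It passed in 4 of the 16 alternatives that gave it a value. No synthetase, Atf4, Asns or transporter of the module passed this test.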

How the results depend on the processing

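No called value changed sign under any alternative run. Counts of module genes that moved by more than 1.5 times were those in the Myb comparisons and, with samples left out, between lines. Of the module, 1 gene was called higher in KY-1 with all 12 arrays as separate samples, with genes of mean over 6 and with a trended prior (Cebpb), and 1 lower with all 12 arrays (Psph). In KY-2 1 gene stayed higher, not 2, with the replicate block, with median centring and with the compared groups alone, and 3 were higher with genes of mean over 6 and with a trended prior. Averaged over the lines 2 genes were higher with all 12 arrays, with genes of mean over 6 and with a trended prior, and under these 3 settings 2 had a larger Myb effect in KY-2 than in KY-1. Leaving out 1 sample gave 0 to 2 higher in KY-2, 0 to 1 on average and 0 to 1 for the difference between Myb effects. Between lines it gave 3 to 6 higher and 9 to 14 lower with GFP (3 to 5 of the calls made with all samples, for those higher), and 6 to 10 lower with Myb, with 7 without KY-1 Myb arrays 3 and 4. The fit of the compared groups alone gives no value for the average or the difference of effects.

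The replicate block made no call that the averaged fit lacked in the Myb comparisons, ended that of Slc7a5 in KY-2 (adjusted p = 0.0699), and left 9 lower between lines with Myb. Over all genes, Myb calls in KY-1 numbered 122 higher and 122 lower, against 403 and 420 with all 12 arrays, 231 and 211 with genes of mean over 6, 242 and 242 with a trended prior, 53 and 53 with the compared groups alone, and 139 and 83 with median centring. In KY-2 they numbered 256 and 309, against 376 and 512 with a trended prior and 166 and 180 with the compared groups alone. Leaving out 1 sample took these as low as 35 and 37 in KY-1 (without KY-1 GFP sample 3) and 102 and 80 in KY-2 (without KY-2 GFP sample 1). Averaged they numbered 303 and 316, against 544 and 599 with all 12 arrays, and for the difference of effects 92 and 76, against 218 and 209 with all 12 arrays and 78 and 108 with median centring. Slc7a11, below the array medians, and Chac1, near them, carry the least certain sizes.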
